A study of Mus musculus with 18 samples.

Results

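The classical interleukin-1 (IL-1) system was followed through 18 mouse RNA sequencing libraries by 5 genes, matched by symbol among 54532 gene identifiers. They were the ligands Il1a and Il1b, the antagonist Il1rn, the signalling receptor Il1r1 and the decoy receptor Il1r2. All 5 were found in all libraries and all 5 passed the filter on low counts in every comparison.

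IL-1 alpha and IL-1 beta, the products of Il1a and Il1b, bind the receptor encoded by Il1r1, which then recruits the accessory chain encoded by Il1rap and signals through MyD88 and the IRAK kinases to NF-kappa B. The antagonist encoded by Il1rn occupies the same receptor without signalling, and the receptor encoded by Il1r2 binds ligand but lacks the signalling domain. IL-1 beta is made as a precursor that caspase-1 cleaves in inflammasomes, so RNA alone does not give the amount of active cytokine. In inflamed colon, myeloid cells are a known source of IL-1 beta, damaged epithelium releases IL-1 alpha, stromal and endothelial cells respond through Il1r1, and neutrophils are known to carry the decoy receptor.

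Mice of the C57BL/6 strain were wild type (WT) or homozygous mutant (KO) at Il1f5, which encodes the IL-36 receptor antagonist, or at Il1f9, which encodes the agonist IL-36 gamma, each line having its own WT group. The making of both alleles was not given in the sources used here. For colitis, mice received dextran sulfate sodium (DSS), a polymer that injures colon epithelium, at 2.5% for 5 days before 2 days on plain water, and a 0.5 cm piece of distal colon was taken. The colitis groups held 3 Il1f5 WT, 3 Il1f5 KO, 2 Il1f9 WT and 2 Il1f9 KO libraries. The tumour groups held 2 libraries each of the same 4 genotypes, from colorectal tumours of the azoxymethane (AOM) and DSS model, in which a carcinogen is combined with DSS. Every mouse, WT included, had therefore received DSS, and no untreated colon is among the groups. The series' text counts mice, so each library was taken as 1 mouse, and the number of tumours behind a tumour library is not stated.

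Library totals ran from 16621611 to 23776174 counts. Counts of Il1f5 were 0 in every library except those labelled Il1f5 KO, which had 36, 43 and 45 counts in colitis and 211 and 102 in tumours. Reads of this gene were thus counted only under the KO label of its own line, in both tissues. The libraries of the Il1f9 line, whose labels name no change at Il1f5, had 0 counts in WT and KO alike. Those groups are called the libraries labelled Il1f5 KO below. Whether these reads come from an intact or a mutant allele was not tested. Whether the WT and KO labels of the Il1f5 line are exchanged was not tested either. If they were, every KO direction given for this line would turn and the comparisons with Il1f5 WT would be with the other group. Counts of Il1f9 followed the labels, with 9 and 1 in Il1f9 KO colitis against 232 and 90 in WT, and 2 and 0 in Il1f9 KO tumours against 1652 and 752 in WT. The tissue was checked by summed markers in CPM, counts scaled to the library total: a list of 13 colon epithelium genes reached 15293 to 35163 in all libraries, and a list of 12 Wnt target genes, known to be high in AOM tumours, reached 1325 to 3296 in tumours against 144 to 221 in colitis colon. Squamous epithelium genes, which colon glands lack, summed to 97.5 to 955 CPM in tumours against 8.20 to 12.96 in colitis colon. The colitis libraries come from 1 table and the tumour libraries from 1 table for each line, so tissue, and line within tumours, cannot be told apart from table.

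In the mouse genome the 5 genes lie in 3 places, given here as in the deposited tables, whose coordinates for these genes equal those of GENCODE M21 (GRCm38). Il1a (ENSMUSG00000027399) spans chr2:129299610-129309972 and Il1b (ENSMUSG00000027398) chr2:129364570-129371139, both on the minus strand. Il1rn (ENSMUSG00000026981) spans chr2:24336853-24351494 on the plus strand, far from both agonists and 53.4 kb from Il1f5 and 143 kb from Il1f9. The receptors are neighbours on the plus strand of chromosome 1, Il1r2 (ENSMUSG00000026073) at chr1:40074079-40125231 and Il1r1 (ENSMUSG00000026072) at chr1:40225080-40317257. All are protein-coding, and each count covers the gene's exons together.

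The promoters of the 3 ligand genes are shown. These genes varied together across the libraries, but so did Il1r2 with them, whose window held no match and is not shown. Each line holds the 250 bases before an annotated start (RefSeq, GRCm38.p6), 5′ to 3′ on the gene's own strand, with matches to the searched motifs in capitals. The Il1a window is chr2:129309973-129310222 and the Il1b window chr2:129371140-129371389, both on the minus strand, and the Il1rn window, at the first of 3 annotated starts, is chr2:24336610-24336859 on the plus strand.
Il1a: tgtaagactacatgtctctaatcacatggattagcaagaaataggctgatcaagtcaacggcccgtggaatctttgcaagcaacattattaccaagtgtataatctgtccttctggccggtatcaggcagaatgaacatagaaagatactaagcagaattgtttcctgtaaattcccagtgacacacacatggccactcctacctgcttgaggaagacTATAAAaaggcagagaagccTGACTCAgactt
Il1b: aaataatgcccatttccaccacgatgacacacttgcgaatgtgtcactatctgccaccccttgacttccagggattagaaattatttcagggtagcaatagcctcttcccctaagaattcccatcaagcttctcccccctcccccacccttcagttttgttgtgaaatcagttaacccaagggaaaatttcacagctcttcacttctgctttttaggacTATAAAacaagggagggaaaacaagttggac
Il1rn: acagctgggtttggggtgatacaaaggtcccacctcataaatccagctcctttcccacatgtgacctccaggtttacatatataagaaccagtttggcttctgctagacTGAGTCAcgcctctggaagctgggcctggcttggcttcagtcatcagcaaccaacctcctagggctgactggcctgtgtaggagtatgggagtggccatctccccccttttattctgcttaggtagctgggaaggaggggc

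Motifs searched on both strands were the TATA box TATAAA, the AP-1 motif TGANTCA, the CCAAT box CCAAT and the NF-kappa B consensus, with no overlap between the matches within a window shown. Il1a and Il1b each hold TATAAA, at bases -32 to -27 and -31 to -26 from the start, a motif present in 12.4% of 32851 mouse promoter windows of the same length. Il1a also holds the AP-1 motif as TGACTCA at -12 to -6, and Il1rn holds it as TGAGTCA at -141 to -135, a motif in 6.75% of windows. The other 2 Il1rn starts, the first Il1r1 start and the Il1r2 start held no match. The second Il1r1 start held the NF-kappa B consensus, found in 7.25% of windows, and a CCAAT box, found in 33.8%. Matches describe letters only, and gene counts do not tell which start was used.

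On a per-length scale, the authors' FPKM, which is scaled to gene length and depth, Il1b was the most abundant of the 5 RNAs in the median of both tissues. In colitis colon the medians over 10 libraries were 30.6 for Il1b, 14.1 for Il1rn, 8.34 for Il1r1, 5.22 for Il1r2 and 3.96 for Il1a. In the 4 tumours of the Il1f5 line they were 45.7 for Il1b, 27.4 for Il1rn, 5.93 for Il1r2, 5.43 for Il1r1 and 3.70 for Il1a. In the 4 tumours of the Il1f9 line they were 247 for Il1b, 53.7 for Il1rn, 31.0 for Il1a, 19.6 for Il1r2 and 3.67 for Il1r1. The order of the lower 3 thus differed between the sets, with Il1r1 highest of them in colitis colon and lowest in the tumours of the Il1f9 line. The full ranges of Il1a, Il1r1 and Il1r2 overlapped in colitis colon, where Il1a ran from 0.154 to 13.5, Il1r1 from 5.06 to 13.5 and Il1r2 from 1.196 to 19.7.

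**Figure D1:**
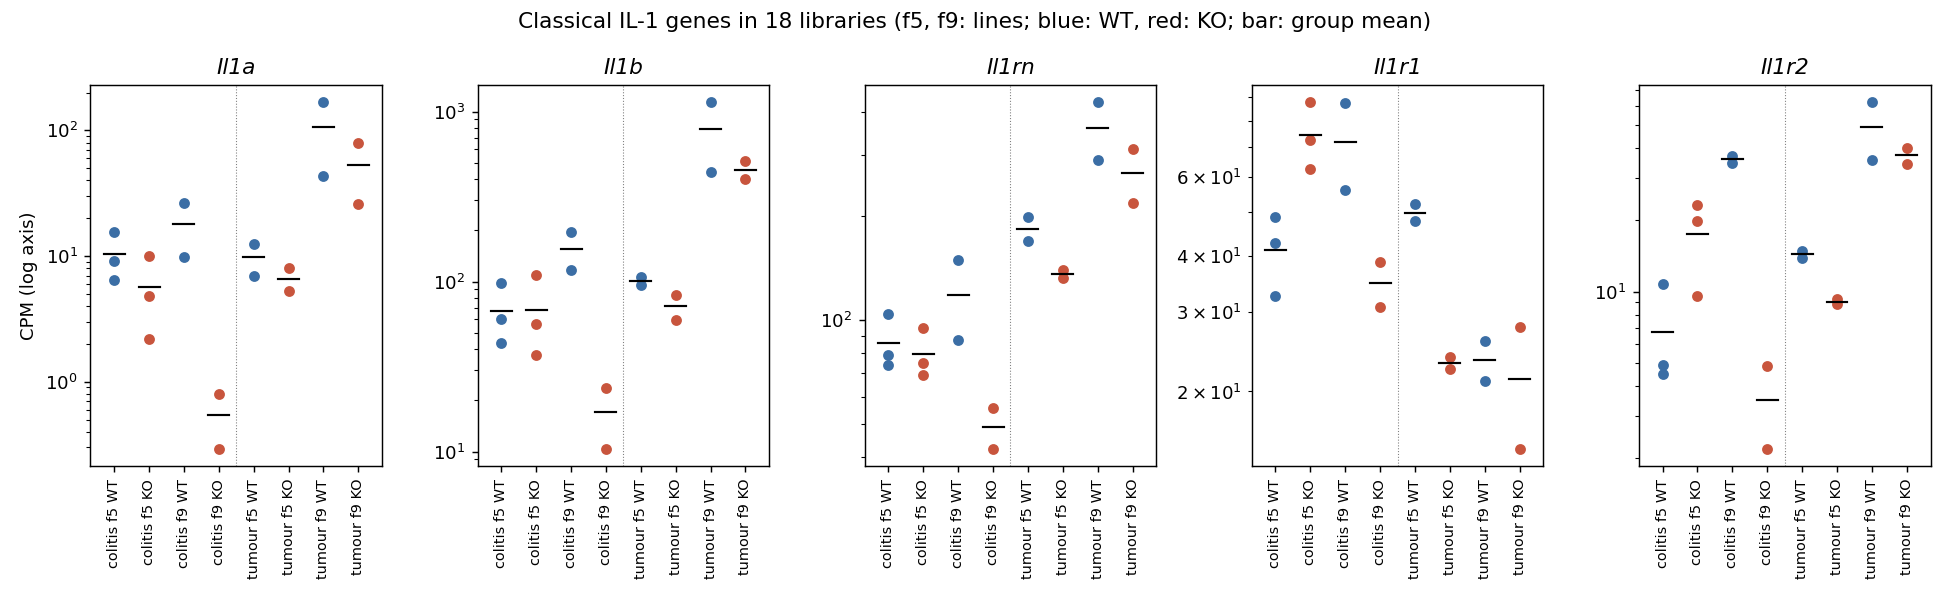
CPM of the 5 genes (log axis, a different scale in each panel) in each of the 18 libraries by group, with blue points for WT, red points for KO and a bar at the group mean. The 2 Il1f9 KO colitis libraries are the lowest points for Il1a, Il1b and Il1rn (Il1a at 0.800 and 0.292 CPM), and the 4 tumours of the Il1f9 line are the highest for Il1a, Il1b and Il1rn except that the Il1a value of 26.0 in an Il1f9 KO tumour is just under the highest colitis value of 26.3.

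Il1a, the alarmin-like agonist, had 6.51, 9.20 and 15.4 CPM in Il1f5 WT colitis colon and 2.17, 4.81 and 10.1 in the libraries labelled Il1f5 KO. It had 26.3 and 9.76 in Il1f9 WT colitis colon and 0.800 and 0.292 in Il1f9 KO, the last 2 resting on 14 and 6 counts. These 2 were the lowest values of all 18 libraries. In tumours Il1a had 12.6 and 6.93 CPM in Il1f5 WT, 5.25 and 7.96 in the libraries labelled Il1f5 KO, 167.5 and 43.7 in Il1f9 WT, and 26.0 and 79.8 in Il1f9 KO. Ordered by mean, the groups ran from Il1f9 WT tumours (106 ± 87.5, SD, n = 2) through Il1f9 KO tumours and Il1f9 WT colitis colon to Il1f9 KO colitis colon (0.546 ± 0.359, n = 2). Each group overlapped its neighbour in that order, except that the last lay below all others.

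Il1b, the inflammasome-processed agonist, had 43.3, 60.2 and 98.1 CPM in Il1f5 WT colitis colon and 36.8, 56.6 and 109.8 in the libraries labelled Il1f5 KO. It had 194.5 and 116.7 in Il1f9 WT colitis colon and 23.6 and 10.4 in Il1f9 KO. The Il1f5 groups overlapped fully, and the Il1f9 groups did not overlap. Tumours had 106 and 95.1 CPM in Il1f5 WT, 59.8 and 83.5 in the libraries labelled Il1f5 KO, 1134 and 442 in Il1f9 WT, and 399.8 and 512 in Il1f9 KO. The 4 tumours of the Il1f9 line thus had more Il1b than any other library. Group means fell in the order Il1f9 WT tumours (788 ± 489, n = 2), Il1f9 KO tumours (456 ± 79.4), Il1f9 WT colitis colon (156 ± 55.0) and Il1f5 WT tumours (100.8 ± 8.08), of which only the first and second overlapped. The tumours labelled Il1f5 KO and both Il1f5 colitis groups followed with overlapping values, and Il1f9 KO colitis colon (17.0 ± 9.35) lay below them.

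Il1rn, the antagonist, varied less. It had 74.1, 79.2 and 104 CPM in Il1f5 WT colitis colon and 69.4, 74.9 and 95.0 in the libraries labelled Il1f5 KO, which overlapped. In Il1f9 WT colitis colon it had 149 and 87.5, and in Il1f9 KO 55.5 and 42.3, with no overlap. Tumours had 169 and 198 in Il1f5 WT, 132 and 139 in the libraries labelled Il1f5 KO, 428 and 291 in Il1f9 WT, and 313 and 219 in Il1f9 KO. By mean the order was Il1f9 WT tumours (359 ± 97.0, n = 2), Il1f9 KO tumours (266 ± 66.5), Il1f5 WT tumours (184 ± 20.7) and tumours labelled Il1f5 KO (136 ± 5.14), followed by the colitis groups. Among these 4 only the first pair overlapped. The tumours labelled Il1f5 KO overlapped Il1f9 WT colitis colon (118 ± 43.4, n = 2), which overlapped both Il1f5 colitis groups, and Il1f9 KO colitis colon (48.9 ± 9.30, n = 2) lay below all others.

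Il1r1, the signalling receptor, had its highest values in colitis colon. It had 32.6, 42.7 and 48.7 CPM in Il1f5 WT and 72.4, 87.8 and 62.5 in the libraries labelled Il1f5 KO, with no overlap. It had 56.1 and 87.3 in Il1f9 WT colitis colon and 38.7 and 30.9 in Il1f9 KO, also without overlap and in the opposite direction. In tumours it had 47.9 and 52.1 in Il1f5 WT, 22.4 and 23.8 in the libraries labelled Il1f5 KO, 21.1 and 25.9 in Il1f9 WT, and 14.9 and 27.8 in Il1f9 KO. The Il1f5 WT tumours stood above the other 6, whose 3 groups overlapped. The order of means was colitis labelled Il1f5 KO (74.3 ± 12.7, n = 3), Il1f9 WT colitis (71.7 ± 22.1, n = 2), Il1f5 WT tumours (49.97 ± 2.99, n = 2), Il1f5 WT colitis (41.3 ± 8.13, n = 3) and Il1f9 KO colitis (34.8 ± 5.55, n = 2), with the 3 remaining tumour groups at 21.3 to 23.5. Neighbours in it overlapped except at 2 steps, from Il1f9 WT colitis to Il1f5 WT tumours and from Il1f9 KO colitis to the remaining tumours.

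Il1r2, the decoy receptor, had 4.50, 4.93 and 10.8 CPM in Il1f5 WT colitis colon and 9.61, 19.8 and 23.1 in the libraries labelled Il1f5 KO, overlapping in 1 value on each side. It had 37.2 and 34.7 in Il1f9 WT colitis colon against 4.85 and 2.19 in Il1f9 KO, far apart. Tumours had 13.9 and 14.8 in Il1f5 WT, 8.83 and 9.30 in the libraries labelled Il1f5 KO, 62.2 and 35.6 in Il1f9 WT, and 34.3 and 40.2 in Il1f9 KO. The 3 highest groups by mean were therefore all of the Il1f9 line, namely WT tumours (48.9 ± 18.8), KO tumours (37.2 ± 4.18) and WT colitis colon (35.9 ± 1.79, n = 2 each), which overlapped. Below them came colitis labelled Il1f5 KO, which overlapped the Il1f5 WT tumours, and then tumours labelled Il1f5 KO, which did not overlap those WT tumours. Il1f5 WT colitis (6.75 ± 3.53, n = 3) and Il1f9 KO colitis (3.52 ± 1.89, n = 2) were lowest and overlapped.

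In colitis, loss of Il1f9 went with lower RNA of the whole set. All 5 genes passed the test as lower in Il1f9 KO than in WT colon (edgeR's quasi-likelihood test, Benjamini-Hochberg adjusted p under 0.05), where 19.6% of 18299 genes tested were called, 9.59% as higher and 9.98% as lower. Il1a fell by 4.99 ± 1.04 on the log2 scale (± SE, adjusted p = 0.0161), a fitted 31.8-fold difference. Il1b fell by 3.11 ± 0.75 (adjusted p = 0.0308) and Il1rn fell by 1.18 ± 0.31 (adjusted p = 0.0325). Of the receptors, Il1r2 fell by 3.26 ± 0.61 (adjusted p = 0.0102) and Il1r1 fell by 0.93 ± 0.24 (adjusted p = 0.0234). The median of the 5 was -3.11, against -0.01 over all genes tested. Each direction held in every fit tried, but with 2 libraries a group the calls were not stable: 3 of 5 stayed called without either WT library, 1 (Il1r2) without KO replicate 1 and 0 without KO replicate 2, where the lone library was assumed to vary like the other groups. With no filter on low counts 2 were called, and 3 when these 2 groups were fitted alone. The sizes moved too: Il1a ranged from -5.85 without KO replicate 1 to -4.02 without WT replicate 1, and without KO replicate 1 Il1b was -3.83 and Il1r2 -3.94.

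Cell type markers moved with these genes in Il1f9 KO colitis colon. Of 15 neutrophil genes 12 were called lower and none higher (median -4.19), their sum being 201 to 266 CPM in KO against 959 to 1568 in WT. Of 15 monocyte and macrophage genes 12 were lower (319 to 382 CPM against 1146 to 1535), of 10 fibroblast genes 6 were lower (1371 to 1857 against 2609 to 3999.8) and of 10 endothelium genes 5 were lower (167 to 195 against 287 to 386). Of 13 colon epithelium genes 6 were higher (34704 to 35163 CPM against 22102 to 25655), of 10 T cell genes 2 were lower (24.7 to 25.9 against 30.9 to 55.5) and of 11 Wnt target genes tested none passed. Squamous epithelium genes were higher in 2 of 7 tested (12.6 to 12.96 CPM against 10.6 to 11.1). No neutrophil, macrophage, fibroblast or endothelium marker was at 0 in all libraries of a group. The part of these markers in the result was not tested, and in bulk RNA fewer cells of a type and less RNA per cell cannot be told apart.

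In colitis, 1 of the 5 genes, Il1r1, passed the test between the libraries labelled Il1f5 KO and WT, a share near that of all genes. Il1r1 rose by 0.78 ± 0.19 (log2 ± SE, edgeR adjusted p = 0.0183), a 1.72-fold difference, where 24.7% of 18299 genes tested were called, 13.7% as higher and 11.0% as lower. Il1r2 had a difference of 1.30 ± 0.47 (adjusted p = 0.0771). Il1a had -0.93 ± 0.65 (adjusted p = 0.334), Il1b -0.04 ± 0.56 (adjusted p = 0.964) and Il1rn -0.17 ± 0.25 (adjusted p = 0.663). The Il1r1 call was lost without WT replicate 1 (adjusted p = 0.0564), WT replicate 2 (0.0577) or KO replicate 2 (0.0609) and with no filter on low counts (0.0693). Endothelium and fibroblast markers were higher here: 10 of 10 endothelium genes were called higher (337 to 432 CPM against 204 to 217 in WT) and 8 of 10 fibroblast genes (3047 to 3416 against 1870 to 2030). Of 15 neutrophil genes 2 were higher (349.6 to 881 CPM against 239 to 534), as were 2 of 10 T cell, 2 of 7 squamous epithelium and 2 of 11 Wnt target genes tested. Of 13 colon epithelium genes 3 were lower, and of 15 monocyte and macrophage genes 1 was higher and 2 lower. The part of these markers in the Il1r1 result was not tested.

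The effects of the 2 genotypes in colitis differed by a direct test for 3 of the 5 genes, where 24.8% of genes tested were called, 12.0% as higher and 12.8% as lower. The KO effect on Il1r2 was lower in the Il1f9 line by -4.56 ± 0.77 on the log2 scale (edgeR adjusted p = 0.00607), that on Il1r1 by -1.71 ± 0.30 (adjusted p = 0.00492) and that on Il1a by -4.06 ± 1.23 (adjusted p = 0.0489). For Il1b the difference was -3.07 ± 0.91 (adjusted p = 0.0517) and for Il1rn -1.02 ± 0.40 (adjusted p = 0.0977). As labelled, the receptors had opposite signs in the lines. With the labels of the Il1f5 line exchanged both receptors would be lower in both lines, Il1r1 by 0.78 there beside -0.93 in the Il1f9 line, so that the opposite signs rest wholly on those labels. The Il1a call was lost without any of 8 of the 10 libraries taken singly (adjusted p up to 0.197), while those of Il1r1 and Il1r2 held without each. Leaving out 1 library moved Il1a between -4.92 (without Il1f9 KO replicate 1) and -3.10 (without Il1f9 WT replicate 1), and Il1r2 to -5.24 without Il1f9 KO replicate 1. The same difference was called as lower for 13 of 15 neutrophil, 12 of 15 monocyte and macrophage, 10 of 10 endothelium and 8 of 10 fibroblast genes, and as higher for 8 of 13 colon epithelium genes, and their part in the result was not tested.

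**Figure D2:**
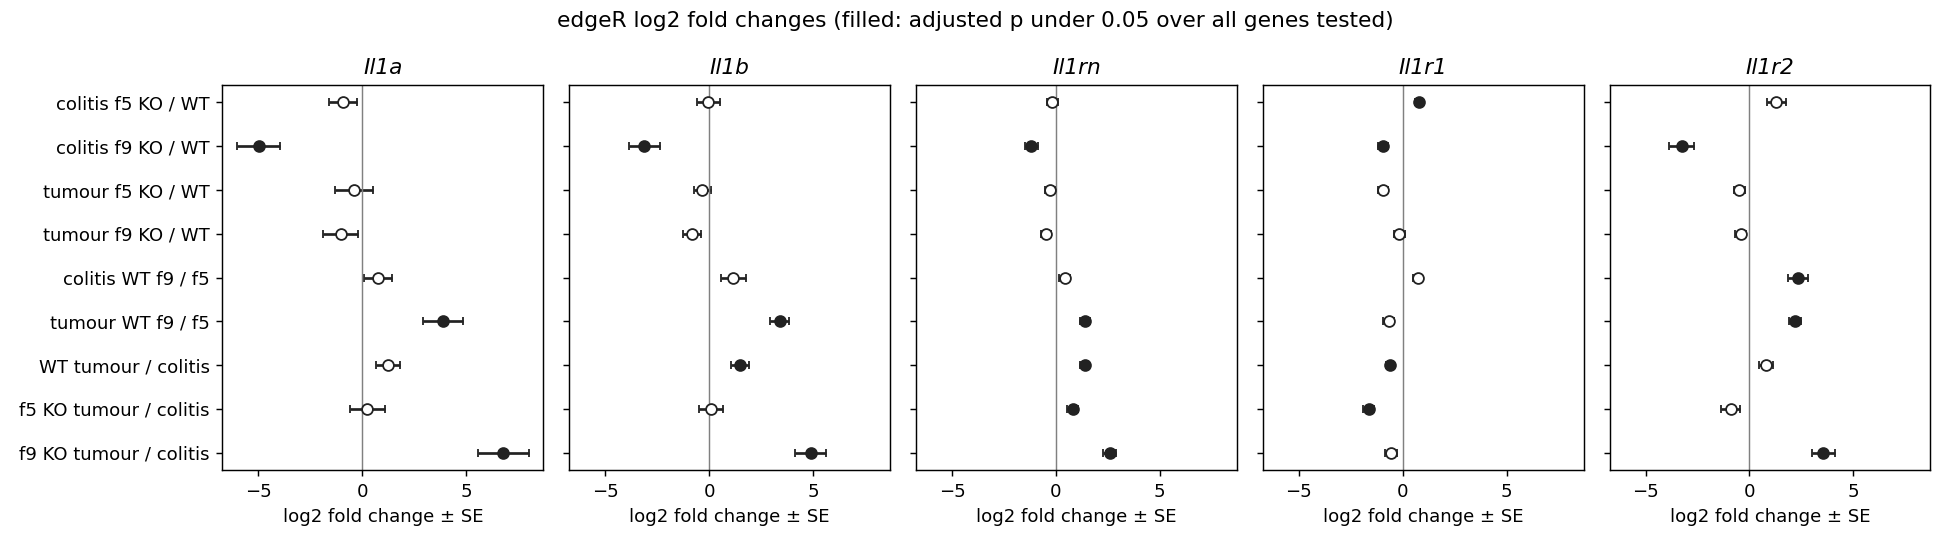
edgeR log2 fold changes (x axis) of the 5 genes in 9 comparisons (rows, first group over second), with bars of ± 1 SE and filled points where the adjusted p over all genes tested was under 0.05. All 5 points are filled and left of 0 in Il1f9 KO colitis colon, none is filled in the KO comparisons of tumours, and Il1r1 lies left of 0 in the comparison of tumour lines while the other 4 lie right of it.

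The WT groups of the lines were not alike in colitis either. Il1r2 was higher in Il1f9 WT than in Il1f5 WT colon by 2.34 ± 0.50 (edgeR adjusted p = 0.0415), the 1 member called where 4.93% of genes tested were called, 3.25% as higher and 1.68% as lower. Il1r1 had 0.72 ± 0.21 (adjusted p = 0.0759), Il1b 1.16 ± 0.61 (0.288), Il1a 0.76 ± 0.69 (0.539) and Il1rn 0.42 ± 0.28 (0.389). The Il1r2 call was lost without any of 4 of the 5 libraries taken singly and with no filter. This comparison shares its WT libraries with the KO comparisons, so its values are not independent of theirs. Beside it, 9 of 15 monocyte and macrophage genes were called higher, with 1146 to 1535 CPM against 569.7 to 648, and 1 of 15 neutrophil, 4 of 10 fibroblast, 4 of 10 endothelium and 2 of 10 T cell genes. Their part in the result was not tested.

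In tumours neither KO group differed detectably from its WT group in any of the 5 genes. Simulated 2-fold changes were recovered in 30.3% (Il1f5 line) and 29.6% (Il1f9 line) of changed genes here, so changes of that size could be missed. In the libraries labelled Il1f5 KO, Il1r1 came closest, at -0.95 ± 0.26 (edgeR adjusted p = 0.0930). The other 4 lay between -0.49 ± 0.27 (Il1r2, adjusted p = 0.304) and -0.27 ± 0.24 (Il1rn, adjusted p = 0.537), so that 0 of 5 members were called where 0.0280% of 17859 genes tested were called, 0.0112% as higher and 0.0168% as lower. At an unadjusted p under 0.05 the count was 1 (Il1r1), and the DESeq2 Wald test called the same gene (adjusted p = 0.0170), as did a fit of the 2 groups alone (0.0284) and a fit over all 18 libraries (0.0333). In Il1f9 KO tumours the values were -1.05 ± 0.84 for Il1a (adjusted p = 0.771), -0.83 ± 0.42 for Il1b (0.639), -0.47 ± 0.24 for Il1rn (0.633), -0.43 ± 0.26 for Il1r2 (0.676) and -0.16 ± 0.26 for Il1r1 (0.889). Here too 0 of 5 were called, where 0.0168% of genes tested were called (0.00560% as higher, 0.0112% as lower), and 0 had an unadjusted p under 0.05 or passed the DESeq2 Wald test. With no filter on low counts 2 were called lower (Il1a, adjusted p = 4.65e-05, and Il1b, 0.000866), though the CPM of both genes overlapped between these groups. Unfiltered edgeR fits also gave very small adjusted p elsewhere, such as 2.79e-26 for Il1a in the Il1f9 effect by tissue. The cause was not tested, and these 2 calls are not read as an effect. The difference between the KO effects of the lines in tumours gave 0 of 5 called by edgeR, where 0.0784% were called (0.0448% as higher, 0.0336% as lower), with 0 at an unadjusted p under 0.05 and 0 by the DESeq2 Wald test. Among the pathway and marker lists, Il1f9 itself was the only gene called in either tumour KO comparison.

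The largest contrasts within tumours lay between the lines. Among WT tumours, 4 of 5 members were higher in the Il1f9 line than in the Il1f5 line, where 28.5% of 17859 genes tested were called, 16.8% as higher and 11.7% as lower. Il1a was higher by 3.88 ± 0.94 (log2 ± SE, edgeR adjusted p = 0.0366), Il1b by 3.40 ± 0.46 (adjusted p = 0.00360), Il1r2 by 2.19 ± 0.27 (adjusted p = 0.00140) and Il1rn by 1.39 ± 0.25 (adjusted p = 0.00483). Il1r1 had -0.68 ± 0.26 (adjusted p = 0.0764). The Il1a call was lost without Il1f5 WT replicate 1 (0.159), Il1f5 WT replicate 2 (0.191) or Il1f9 WT replicate 1 (0.0825), while the other 3 held without each library. Il1a moved between 2.56 without Il1f9 WT replicate 1 and 4.58 without Il1f9 WT replicate 2, and Il1b was 2.53 without Il1f9 WT replicate 1. Across all 8 tumours, KO included, the same 4 genes had no overlap between lines, where 8.28% of genes tested lay higher and 28.9% lower in the Il1f9 line without overlap, and Il1r1 overlapped (14.9 to 27.8 against 22.4 to 52.1 CPM). CPM are scaled to library totals only, and these shares lean to lower values in the Il1f9 line, unlike the TMM-scaled test. CPM levels, orders and marker sums compared between tumour lines can therefore differ from the fitted differences.

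Neutrophil genes moved with this contrast, 12 of 15 being called higher in Il1f9 WT tumours (median 3.47), at 1846 to 4041 CPM against 447 to 928. The KO tumours had 1020 to 1719 in the Il1f9 line and 417 to 531 in the libraries labelled Il1f5 KO. Of 15 monocyte and macrophage genes 4 were higher (1756 to 2232 CPM against 769 to 1269.5), of 10 endothelium genes 2 were lower (61.4 to 84.6 against 143 to 152), of 10 fibroblast genes 1 was lower and of 13 colon epithelium genes 6 were higher and 1 lower. None of 12 squamous epithelium genes tested passed, 1 of 10 T cell genes was lower, and of 12 Wnt target genes 2 were higher and 4 lower. The part of these markers in the result was not tested, and line and table cannot be told apart here.

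**Figure D3:**
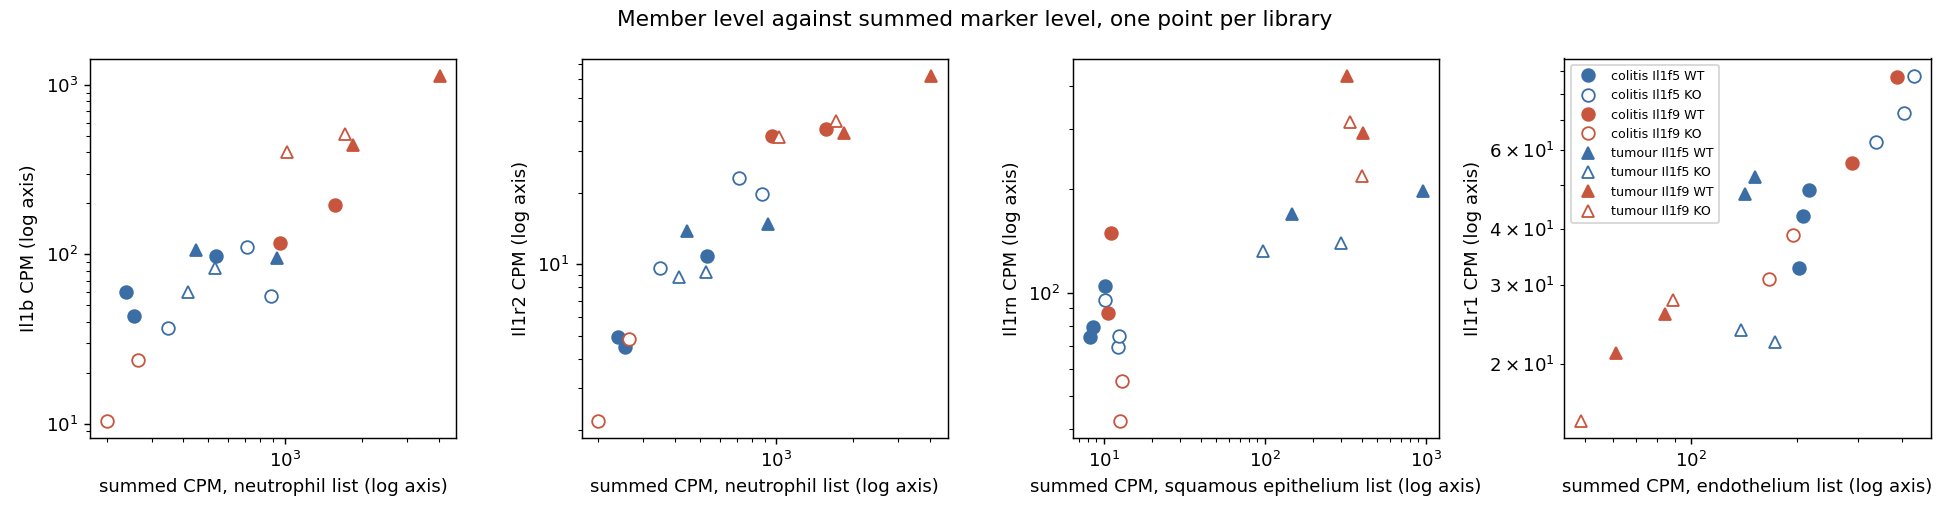
CPM of Il1b and Il1r2 against the summed CPM of 15 neutrophil genes, of Il1rn against 14 squamous epithelium genes and of Il1r1 against 10 endothelium genes (both axes log), with circles for colitis colon, triangles for tumours, blue for the Il1f5 line, red for the Il1f9 line, filled for WT and open for KO, 1 point per library. The neutrophil sums run from 201 CPM in an Il1f9 KO colitis library to 4041 in an Il1f9 WT tumour, and the endothelium sums from 48.7 CPM in an Il1f9 KO tumour to 432 in a colitis library labelled Il1f5 KO.

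In the mean of both lines, WT tumours and colitis colon differed in one direction for Il1b and Il1rn and in the other for the signalling receptor. In that mean Il1rn was higher in tumours by 1.38 ± 0.20 (edgeR adjusted p = 4.61e-05) and Il1b by 1.49 ± 0.42 (adjusted p = 0.00992), while Il1r1 fell by 0.63 ± 0.18 (adjusted p = 0.00759). The lines were not alike. Il1r1 had 47.9 to 52.1 CPM in Il1f5 WT tumours against 32.6 to 48.7 in colitis colon. In Il1f9 WT it had 21.1 to 25.9 against 56.1 to 87.3. Il1b overlapped between tissues in Il1f5 WT (95.1 to 106 against 43.3 to 98.1) but not in Il1f9 WT (442 to 1134 against 116.7 to 194.5). Il1rn overlapped in neither line. Il1a had 1.25 ± 0.58 (adjusted p = 0.0843) and Il1r2 0.79 ± 0.32 (adjusted p = 0.0502). That was 3 of 5 called, where 61.2% of 19514 genes tested were called (30.1% as higher, 31.1% as lower), a share near the background. The Il1b call was lost without Il1f9 WT tumour replicate 1 (adjusted p = 0.0532), and Il1r2 was called, among other settings, with DESeq2 size factors (0.0491). Beside it, 8 of 10 fibroblast and 7 of 10 endothelium genes were lower in WT tumours, with fibroblast sums of 835 to 1607 CPM against 1870 to 3999.8, 9 of 12 squamous epithelium genes tested and all 12 Wnt target genes were higher, and 7 of 15 neutrophil genes were higher. Of 13 colon epithelium genes 7 were lower and 3 higher, of 15 monocyte and macrophage genes 5 were lower and 4 higher, and of 10 T cell genes 1 was lower and 2 higher. The squamous markers Ivl and Sprr1b were at 0 in all colitis libraries. The part of these markers in the result was not tested, and tissue and table cannot be told apart.

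Within genotypes the tissue contrast took different forms. In the Il1f9 KO groups, 4 of 5 members were higher in tumours, where 51.5% of genes tested were called (26.2% as higher, 25.3% as lower): Il1a by 6.78 ± 1.23 (edgeR adjusted p = 0.000837), Il1b by 4.89 ± 0.74 (0.000221), Il1r2 by 3.56 ± 0.54 (0.000157) and Il1rn by 2.58 ± 0.31 (1.56e-05). Il1r1 had -0.56 ± 0.27 (adjusted p = 0.1002). Leaving out 1 library moved Il1a between 5.75 (without tumour KO replicate 2) and 7.63 (without colitis KO replicate 1), and without the latter Il1b was 5.61 and Il1r2 4.24. Beside it, 12 of 15 neutrophil and 12 of 15 monocyte and macrophage genes were higher, and 3 of 10 fibroblast and 7 of 10 endothelium genes lower. In the libraries labelled Il1f5 KO, Il1rn was higher in tumours by 0.81 ± 0.27 (adjusted p = 0.0194) and Il1r1 fell by 1.64 ± 0.26 (adjusted p = 8.89e-05), so that 2 of 5 were called where 56.3% of genes tested were called (29.0% as higher, 27.3% as lower). Here 9 of 10 fibroblast and 8 of 10 endothelium genes were lower, and 1 of 15 neutrophil genes. The part of these markers in either result was not tested. The Il1rn call there was lost without any of 4 of the 5 libraries taken singly. Il1r2 had -0.91 ± 0.46 (adjusted p = 0.107), Il1a 0.24 ± 0.85 (0.831) and Il1b 0.10 ± 0.57 (0.893).

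Whether a KO effect itself depended on tissue was tested directly. For the Il1f5 line 1 of 5 members passed, where 18.1% of genes tested were called (10.8% as higher, 7.23% as lower): the effect on Il1r1 was lower in tumours than in colitis by -1.71 ± 0.35 (edgeR adjusted p = 0.00680), being 0.78 in colitis and -0.95 in tumours. That call held without each library in turn, but 1 of 5 is a share near that of all genes, and the sign would turn with the labels of this line exchanged. The same difference was called as lower for 2 of 10 fibroblast genes and 1 of 10 endothelium genes (medians of -0.95 and -0.69), and their part was not tested. For Il1r2 the difference was -1.79 ± 0.64 (adjusted p = 0.0718). For the Il1f9 line 0 of 5 passed in edgeR, where 2.47% of genes tested were called (1.65% as higher, 0.820% as lower). At an unadjusted p under 0.05 there were 3 (Il1a, Il1b and Il1r2), and the DESeq2 Wald test called 2 (Il1a and Il1r2). Il1r2 was nearest at 2.85 ± 0.70 (adjusted p = 0.0534), so the fall of the set seen in colitis was not shown to differ from the values in tumours.

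Genes downstream of IL-1 were described by a list of 22 NF-kappa B and chemokine genes that IL-1 is known to induce, although other cytokines, IL-36 among them, induce many of the same genes. In Il1f9 KO colitis colon 12 of 21 tested were lower and none higher (median -2.05), among them Nos2, the inducible nitric oxide synthase (-3.20 ± 0.31, edgeR adjusted p = 0.000556), Zc3h12a, an RNase that limits inflammatory mRNA (-0.99 ± 0.15, adjusted p = 0.00132), and the adhesion molecule Icam1 (-2.38 ± 0.40, adjusted p = 0.00568). In colitis libraries labelled Il1f5 KO 2 of 21 were higher and 1 lower (median 0.77), fewer in proportion than the 24.7% of all genes called, namely Ptges, a prostaglandin E synthase (1.42 ± 0.37, adjusted p = 0.0291), Cxcl3, a neutrophil chemokine (2.18 ± 0.65, adjusted p = 0.0477), and Nos2 (-1.86 ± 0.24, adjusted p = 0.00250). The shared sign of Nos2 in the lines rests on those labels. The difference of the KO effects was called as lower in the Il1f9 line for 14 of 21 genes (median -3.35), Lcn2, an iron-binding neutrophil and epithelial protein, among them (-7.16 ± 1.16, adjusted p = 0.00763). Between WT colitis groups 2 of 21 were higher in the Il1f9 line, Nfkbiz, an NF-kappa B cofactor (0.51 ± 0.10, adjusted p = 0.0149), and Lcn2 (3.57 ± 0.74, adjusted p = 0.0474). The share of all genes tested that was called lower was 9.98% in Il1f9 KO colitis colon and 12.8% in the difference of the KO effects. Between the WT colitis groups 3.25% were called higher.

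In WT tumours 14 of the 22 response genes were higher in the Il1f9 line than in the Il1f5 line and none lower (median 2.39). Of all genes tested 28.5% were called there, 16.8% as higher and 11.7% as lower. The response genes were led by Cxcl5 (2.88 ± 0.27, edgeR adjusted p = 0.000717) and Cxcl2 (4.41 ± 0.54, adjusted p = 0.00306), both chemokines for neutrophils, and the cytokine Lif (2.23 ± 0.34, adjusted p = 0.00307). Between WT tissues 8 of 22 were higher in tumours and 1, the matrix metalloproteinase gene Mmp3, was lower (median 0.59), fewer in proportion than the 61.2% of all genes called, with Cxcl5 (3.01 ± 0.27, adjusted p = 8.10e-07) and Csf2, a myeloid growth factor (2.89 ± 0.54, adjusted p = 0.000294), at the head. None of 22 passed in either tumour KO comparison, where 0.0280% (libraries labelled Il1f5 KO) and 0.0168% (Il1f9 KO) of genes tested were called.

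**Figure D4:**
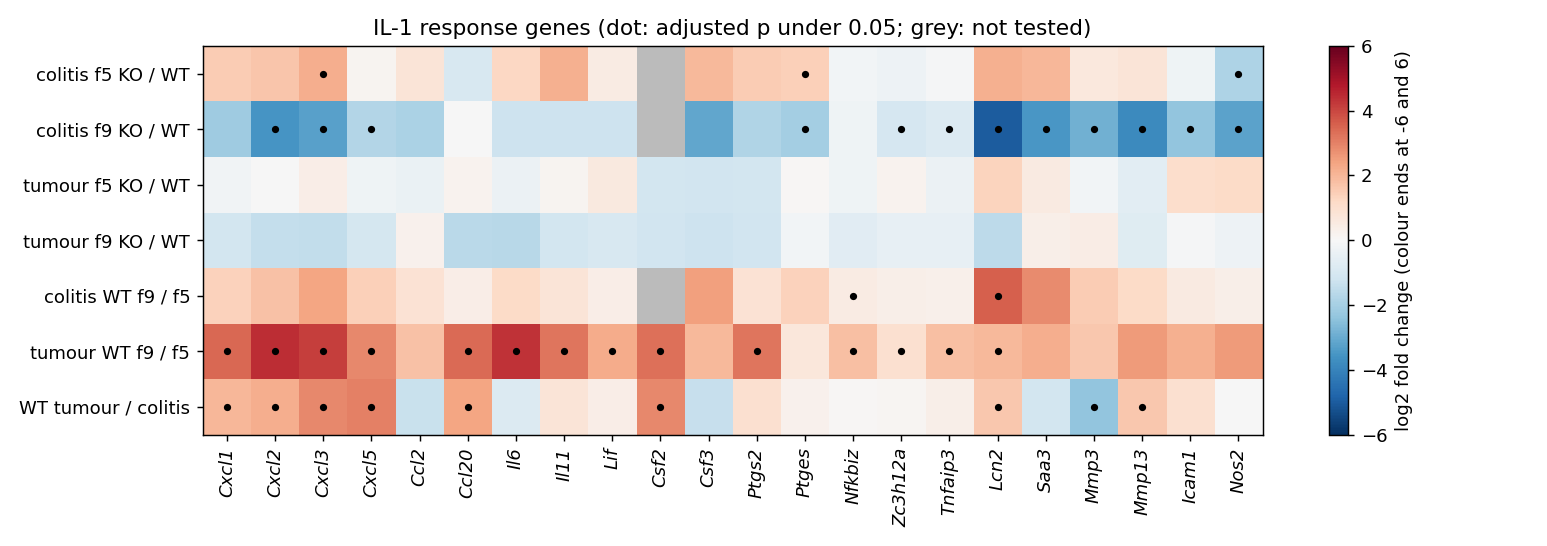
edgeR log2 fold changes of the 22 IL-1 response genes (columns) in 7 comparisons (rows, first group over second), red for higher, blue for lower, with a dot where the adjusted p was under 0.05 and grey where a gene was not tested. The row of Il1f9 KO colitis colon holds 12 dots, all blue, the row of WT tumour lines holds 14 dots, all red, and the rows of the tumour KO comparisons hold none. Over all genes tested, 9.98% were called lower in Il1f9 KO colitis colon and 16.8% higher in Il1f9 WT than in Il1f5 WT tumours.

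Genes of the receptor's signalling chain were counted next. In Il1f9 KO colitis colon 9 of 20 were lower and none higher (median -0.23), led by Irak3, a myeloid kinase relative that restrains IRAK signalling (-1.99 ± 0.19, edgeR adjusted p = 0.000132), and Nfkbia, the NF-kappa B inhibitor (-0.77 ± 0.15, adjusted p = 0.00607). In colitis libraries labelled Il1f5 KO 2 were higher, the same Irak3 (0.55 ± 0.15, adjusted p = 0.0244) and Nfkbia (0.46 ± 0.13, adjusted p = 0.0224), and 2 were lower, Irak1 and Myd88. Together these were fewer in proportion than the 24.7% of all genes called. Irak3 and Nfkbia were also the 2 genes higher in Il1f9 WT than in Il1f5 WT colitis colon. The difference of the KO effects was called for 4 of 20, all lower in the Il1f9 line, where 24.8% of all genes tested were called, 12.8% as lower. In WT tumours 5 were higher in the Il1f9 line, with Il1rap, the accessory chain, at 1.83 ± 0.25 (adjusted p = 0.00180), and 2 were lower, with Sigirr, an inhibitory receptor of the family, at -0.79 ± 0.16 (adjusted p = 0.00866). Between WT tissues 8 were higher and 8 lower in tumours (median 0.09), a split with no shared direction. Of all genes tested, 9.98% were called lower in Il1f9 KO colitis colon and 3.25% higher between the WT colitis groups. Between WT tumours 28.5% were called, and between WT tissues 61.2%.

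Of the maturation and inflammasome genes, 5 of 13 tested were lower in Il1f9 KO colitis colon, with Mefv, which encodes pyrin (-2.89 ± 0.32, edgeR adjusted p = 0.000273), and Nlrp3, the sensor of the best known inflammasome (-3.23 ± 0.77, adjusted p = 0.0235), among them. Casp1, which encodes the protease that cleaves pro-IL-1 beta, had 0.31 ± 0.16 there (adjusted p = 0.196). In colitis libraries labelled Il1f5 KO 2 of 13 were lower, Pycard, the inflammasome adaptor (-0.43 ± 0.12, adjusted p = 0.0243), and Casp8 (-0.35 ± 0.10, adjusted p = 0.0266). That was fewer in proportion than the 24.7% of all genes called there. WT tumours of the Il1f9 line had 6 of 12 higher than those of the Il1f5 line, Mefv (2.32 ± 0.35, adjusted p = 0.00262) and Nlrp3 (3.24 ± 0.59, adjusted p = 0.0111) again among them. Between WT tissues 3 were higher and 3 lower in tumours, fewer in proportion than the 61.2% of all genes called, Pycard falling by 1.41 ± 0.19 (adjusted p = 2.12e-05). Of all genes tested, 9.98% were called lower in Il1f9 KO colitis colon and 16.8% higher in Il1f9 WT than in Il1f5 WT tumours.

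Related genes on the chromosomes of the members were counted next. These counts hold members already reported above and give no separate support for them. The receptors lie in a family cluster on chromosome 1, and Il1rn lies near Il1f5 and Il1f9 on chromosome 2. The chromosome 2 list also holds Il1a and Il1b, at 105016 to 105171 kb from Il1f5 and Il1f9, so it is not a single neighbourhood. Around the receptors on chromosome 1, 5 of 8 genes were lower in Il1f9 KO colitis colon, Il1r1 and Il1r2 included, with Il18rap, a chain of the IL-18 receptor, at -2.28 ± 0.30 (edgeR adjusted p = 0.000738). In colitis libraries labelled Il1f5 KO 4 of 8 were higher, Il1r1 included, with Il1rl1, the IL-33 receptor, at 1.75 ± 0.24 (adjusted p = 0.00259) and Il1rl2, the IL-36 receptor, at 1.02 ± 0.21 (adjusted p = 0.00683). Il1rl1 and Il1rl2 were also, with Il1r1, the 3 genes of this cluster whose Il1f5 KO effect was lower in tumours than in colitis. Of the chromosome 2 list, 4 of 8 tested were lower in Il1f9 KO colitis colon, the 3 ligand genes and Il1f9 itself. No gene of this list beyond the members and the targeted gene was called there. In Il1f9 WT tumours 6 of 9 were higher than in Il1f5 WT tumours, the 3 ligand genes, Il1f9 and its relatives Il1f6 (2.90 ± 0.41, adjusted p = 0.00195) and Il1f8. Il1f6 reached at most 77 counts in a tumour library. Of all genes tested, 9.98% were called lower in Il1f9 KO colitis colon and 13.7% higher in the colitis libraries labelled Il1f5 KO. For the Il1f5 effect by tissue 7.23% were called lower, and 16.8% were called higher in Il1f9 WT than in Il1f5 WT tumours.

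The balance between antagonist and agonists was followed as a ratio of counts per gene length within each library. Il1rn over the sum of Il1a and Il1b was 0.318 to 0.515 in Il1f5 WT colitis colon and 0.274 to 0.615 in the libraries labelled Il1f5 KO, and 0.233 and 0.239 in Il1f9 WT against 0.784 and 1.37 in Il1f9 KO. The last value was the only one above 1, so agonist RNA exceeded antagonist RNA per length in the other 17 libraries. In tumours the ratio was 0.491 to 0.702 in the Il1f5 line and 0.114 to 0.254 in the Il1f9 line, without overlap. The mean log2 ratio differed by 2.13 between Il1f9 KO and WT colitis colon, where the exact two-sided permutation test of 2 against 2 cannot go below p = 0.3333. Il1rn was the longest ligand model, at 5535 bases against 1974 for Il1a and 1907 for Il1b, so the level of this ratio depends on the lengths the authors gave.

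Il1b exceeded Il1a in every library, by 6.58-fold to 36.8-fold per length. In Il1f5 colitis the ratio was 6.58 to 6.88 in WT and 11.3 to 17.5 in the libraries labelled Il1f5 KO, a log2 difference of 0.99 with no overlap (exact permutation p = 0.1, the smallest that 3 against 3 allows, adjusted p = 0.571 over 18 tests). In Il1f9 colitis it was 7.66 and 12.4 in WT against 30.5 and 36.8 in KO, a difference of 1.78. Tumour values of 6.65 to 15.95 overlapped between lines and genotypes.

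Decoy over signalling receptor, Il1r2 over Il1r1 per length, ran from 0.236 to 2.21 in colitis colon, from 0.949 to 1.32 in tumours of the Il1f5 line and from 4.59 to 9.84 in tumours of the Il1f9 line. Within colitis it was 1.32 and 2.21 in Il1f9 WT and 0.236 and 0.418 in Il1f9 KO. KO tumours exceeded KO colitis colon by 2.42 on the log2 scale (exact two-sided permutation p = 0.0159, adjusted p = 0.286), and WT tumours exceeded WT colitis colon by 1.62 (p = 0.127, adjusted p = 0.571). None of the 18 ratio tests, 3 ratios in 6 comparisons, passed after adjustment, and 12 of them could not have reached an unadjusted p under 0.05 at these group sizes.

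**Figure D5:**
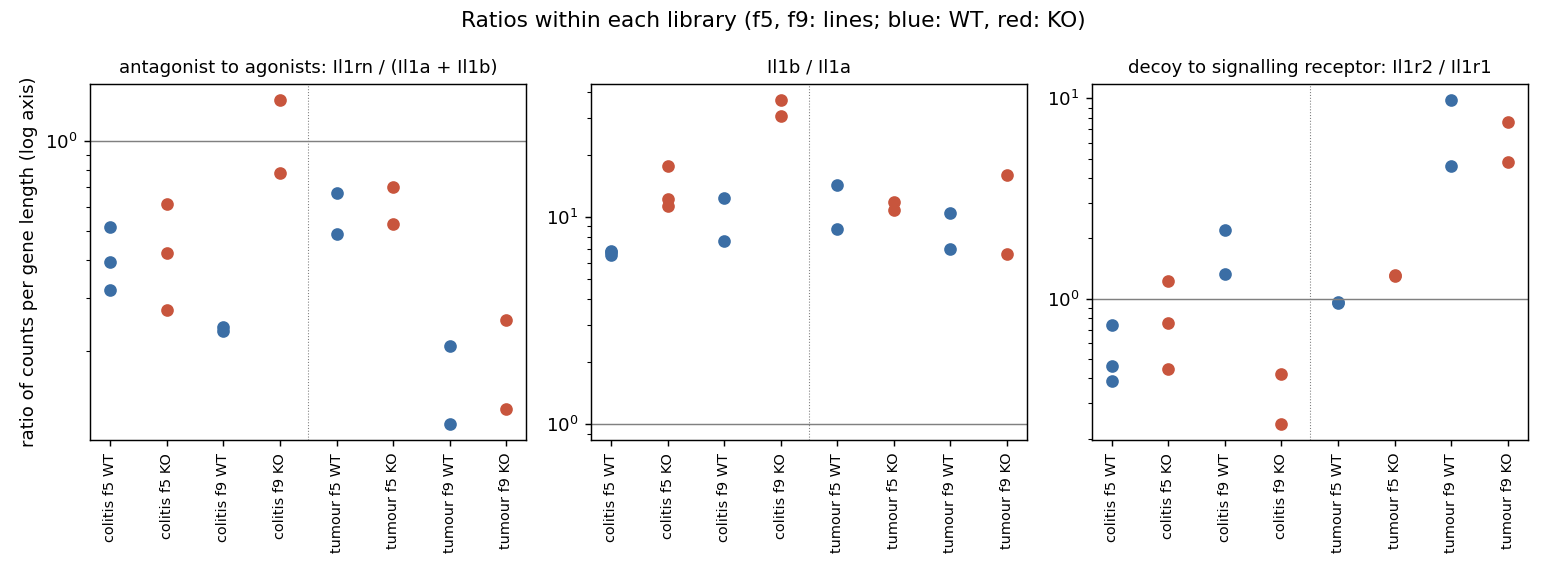
Ratios per gene length in each library (log axis) of Il1rn to the sum of Il1a and Il1b, of Il1b to Il1a and of Il1r2 to Il1r1, with blue points for WT, red points for KO and a line at 1. The ratio of antagonist to agonists is highest in Il1f9 KO colitis colon (0.784 and 1.37), and the ratio of decoy to signalling receptor is highest in the tumours of the Il1f9 line (4.59 to 9.84).

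Across tumour libraries Il1r1 varied unlike the other 4 genes, which varied together in both tissues. Pearson correlations of log2(CPM + 0.5) are given as descriptions, over 10 colitis and 8 tumour libraries that share groups, depth and cell makeup, and the tumours fall into 2 sets by line. Il1a and Il1b had 0.96 in colitis and 0.97 in tumours, Il1b and Il1rn 0.97 and 0.92, and Il1b and Il1r2 0.87 and 0.99. Il1r1 had 0.38 to 0.56 with the ligands in colitis and -0.43 to -0.35 in tumours, and with Il1r2 it had 0.83 in colitis and -0.36 in tumours. In colitis Il1r2 had 0.70 with Il1a and 0.79 with Il1rn, both under its value with Il1r1.

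The genes most alike were those with the highest smaller one of the 2 correlations among 13101 genes. For Il1b they were Clec4e, a myeloid pattern receptor (0.992 in colitis and 0.996 in tumours), Plek, a protein kinase C substrate of blood cells, Nlrp3, and Hdc, which encodes the enzyme that makes histamine. Il1a had Il1b itself (0.955 and 0.975), Slfn1, Plek and Clec4e. Il1rn had Plek (0.959 and 0.951), Hdc, the chemokine Ccl3 and Il1b. Il1r2 had Clec4d, a myeloid lectin (0.982 and 0.986), Samsn1, the glycogen phosphorylase Pygl and Trem1, of which Clec4d and Trem1 are also in the neutrophil list. Il1r1 had another set, the growth factor Fgf2 (0.972 and 0.955), the venular chemokine-binding receptor Ackr1 (0.973 and 0.935), Zmat1 and the receptor Fgfr1.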

How the data were processed

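Poly(A) RNA of 18 libraries, from 10 µg of total RNA each, was sequenced in paired reads of 150 bases with a kit that does not keep strand, per the labels' protocols, so reads of overlapping antisense genes cannot be told apart. The submitters' processing notes name Trim Galore 0.6.4, HISAT2 2.0.5 and featureCounts 2.0.0, in a role and order not stated, and a build was not given in the sources used here. Deposited tables, 3 in number, hold the authors' counts per gene, whole numbers without scaling, and the authors' FPKM, together with gene lengths. Of 54532 gene identifiers 54409 were found in GENCODE M21 and 53499 had identical coordinates. Dates stood in place of 11 symbols in the colitis data, and names were taken from another table.

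Counts were tested in R 4.3.3 by edgeR 4.0.16 after filterByExpr and TMM scaling, with a group-means model per tissue (1 fit over all 18 libraries for tissue contrasts) and the robust quasi-likelihood test, adjusted by Benjamini-Hochberg over all genes tested in each of 13 comparisons. A gene was called at an adjusted p under 0.05. SE was the log2 fold change over the root of F. CPM are counts scaled to the library total. Ratios were compared by exact two-sided permutation of log2 values, adjusted over 18 tests, with both lines pooled where tissues were compared. The members, the 5 pathway lists, the 8 marker lists and the motifs were chosen with earlier results of these data known. Named genes were the 5 members, the targeted genes, up to 3 called genes with the smallest p per list and comparison, and the 4 most alike genes per member. Mmp3, Casp1, Il1f8, Myd88, Ivl and Sprr1b were named outside this rule, with their values known. The alternatives tried were size factors and the Wald test of DESeq2 1.42.0, no filter, the replicate number as a block, no robust shrinkage, other sets of libraries in the fit, each library left out, and for ratios the authors' FPKM or 1 count added. The fit was tested on simulated data with 200 changed genes in each of the 4 KO comparisons and the WT tissue comparison. Changes of 2-fold were recovered in 65.3% (Il1f5) and 57.6% (Il1f9) in colitis, 30.3% and 29.6% in tumours, and 59.6% between WT tissues. Changes of 4-fold were recovered in 92.9% and 82%, 77.6% and 73.5%, and 96.9%. From 0.93% (tumour Il1f5) to 6.63% (colitis Il1f5) of calls fell on unchanged genes. Python 3.11.15, numpy 2.4.6, pandas 2.3.3 and matplotlib 3.10.9 gathered and drew the values. No batch label was given, and replicates of every group differed by more than counting noise.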

Additional observations from a re-analysis of the deposited data

Results flagged for a closer look

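In colitis the KO effect differed between the lines by a direct test (Il1f9 line minus Il1f5 line, log2 scale, edgeR) for Il1a by -4.06, for Il1r1 by -1.71 and for Il1r2 by -4.56. The KO effect on Il1r1 in the Il1f5 line also differed between tissues, tumour minus colitis, by -1.71. All 4 differences involve the libraries labelled Il1f5 KO, in which alone Il1f5 reads were counted, and whether the WT and KO labels of that line are exchanged was not tested. With those labels exchanged, the line differences of Il1r1 and Il1r2 would be smaller, Il1r1 being 0.78 lower in the Il1f5 line beside -0.93 in the Il1f9 line, that of Il1a would be larger, and the tissue difference of Il1r1 would turn its sign. In the tissue difference 1 of 5 members was called, near the 18.1% of all genes. No group held 4 or more libraries, so single libraries far from their group were not tested.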

How the results depend on the processing

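No log2 fold change of the 5 genes changed sign under another tool, scaling, filter, block, shrinkage or set of libraries, and 335 such values kept their call, 40 gained one and 10 lost it. The count of members called moved by more than 1.5 times as follows. In colitis Il1f5, from 1 to 2 with the DESeq2 Wald test, the replicate block or no robust shrinkage and to 0 with no filter. In colitis Il1f9, from 5 to 2 with no filter and to 3 in a fit of the 2 groups alone. The colitis difference went from 3 to 5 with the Wald test or the replicate block, and the colitis WT lines from 1 to 2 with the Wald test and to 0 with no filter. Tumour Il1f5 went from 0 to 1 with the Wald test, no filter, 1 fit over all libraries or 2 groups alone, and tumour Il1f9 from 0 to 2 with no filter. WT tissues went from 3 to 5 with no filter or no robust shrinkage. The Il1f5 effect by tissue went from 1 to 2 with the Wald test, no filter, the replicate block or no robust shrinkage, and the Il1f9 effect by tissue from 0 to 2 with the Wald test, 5 with no filter and 1 with no robust shrinkage. Smaller moves were from 3 to 2 (no filter) and 4 (no robust shrinkage) in the colitis difference, from 4 to 5 (Wald test or no filter) and 3 (replicate block) in the tumour WT lines, from 3 to 4 (DESeq2 size factors, Wald test or replicate block) in WT tissues, from 2 to 3 (Wald test or no filter) in Il1f5 KO tissues and from 4 to 5 (no filter) in Il1f9 KO tissues. The cause of these moves was not tested. In tumour and all-library fits the calls gained with no filter came with very small edgeR adjusted p, such as 2.79e-26 for Il1a in the Il1f9 effect by tissue. With 2 or 3 libraries a group, those calls are not read as results.

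Leaving out each library gave counts of 0 to 2 in colitis Il1f5, 0 to 3 in colitis Il1f9, 2 to 4 in the colitis difference, 0 to 1 in the colitis WT lines, 3 to 4 in the tumour WT lines, 2 to 5 in WT tissues, 1 to 2 in Il1f5 KO tissues, 4 to 5 in Il1f9 KO tissues and 1 to 2 in the Il1f5 effect by tissue. Signs that turned belonged to values that had not been called. In log2 fold changes these were, in colitis Il1f5, Il1b (-0.58 to 0.34). In the colitis WT lines they were Il1a (-0.22 to 1.32) and Il1rn (-0.10 to 0.78), and in tumour Il1f5 Il1a (-0.74 to 0.08). In tumour Il1f9 they were Il1a (-2.06 to 0.28), Il1b (-1.38 to 0.05), Il1r1 (-0.67 to 0.20) and Il1r2 (-0.81 to 0.07). In the tumour difference they were Il1a (-1.67 to 0.66), Il1b (-1.07 to 0.37), Il1rn (-0.51 to 0.14) and Il1r2 (-0.33 to 0.55). In Il1f5 KO tissues they were Il1a (-0.16 to 0.94) and Il1b (-0.21 to 0.65), and in the Il1f5 effect by tissue Il1b (-0.66 to 0.25) and Il1rn (-0.26 to 0.05). Of log2 ratios, Il1rn to agonists turned in WT tissues (-0.52 to 0.33), colitis Il1f5 (-0.24 to 0.34), tumour Il1f5 (-0.14 to 0.31) and tumour Il1f9 (-0.26 to 0.73). Il1b to Il1a turned in tumour Il1f5 (-0.33 to 0.37) and tumour Il1f9 (-0.37 to 0.90), and Il1r2 to Il1r1 in tumour Il1f9 (-0.69 to 0.41).

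The labels do not say that replicate numbers pair the libraries, and the main tests did not pair them. Same-numbered libraries correlated at 0.002, -0.149 and -0.179 in colitis Il1f5, -0.127 in colitis Il1f9, and -0.080 and -0.214 in the tumours of the Il1f5 and Il1f9 lines. Different-numbered ones in colitis Il1f5 ran from -0.075 to 0.186. With 2 libraries a group, same- and different-numbered values differ only in sign, so they cannot tell whether libraries are paired. The replicate block also ended the call of Il1a between the tumour WT lines (adjusted p = 0.0679). With 2 or 3 libraries a group, and 6 and 14 counts of Il1a in Il1f9 KO colitis colon, sizes of the largest differences are imprecise.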
